A study of Mus musculus with 2 samples.

Results

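Interferon-inducible genes outside the Ifi200 family were described in developing T cells of the mouse thymus, as a fixed list of 31 genes among the 27933 gene symbols of both count tables. Membership was set by gene name with no cutoff on a measured value, but the list was chosen with earlier results of these data known. RNA of single thymocytes was counted in 1 wild type library and in 1 library, called mutant here, from thymus that carried mutated GATA sites 1 and 2 (GS1+2) of NMe on both alleles. NMe is an enhancer far from Myc, a proto-oncogene, and is bound by NOTCH1 in precursors of T cells. GATA3 is among the factors that read GATA motifs. The labels give no age, sex, strain background or number of animals for either library.

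Interferons are secreted proteins that act through receptors on the cell surface. Type I interferons signal through JAK1 and TYK2 to a complex that holds STAT2 and IRF9 and binds the interferon-stimulated response element (ISRE), and interferon gamma signals through JAK1 and JAK2 to the gamma-activated site (GAS). The genes switched on include antiviral effectors, GTPases that attack vacuoles of intracellular microbes, and regulators that feed back on the signal. In the thymus, type I interferon is made at rest by medullary epithelium in mice, and late single-positive thymocytes are known to carry an interferon-induced program.

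With 1 library per genotype there was no test between genotypes. Each comparison is between these libraries, with 95% intervals for counting error alone. Levels are unique molecular identifiers (UMIs) summed over the cells of a library and divided by all UMIs of those cells, per 1000000 (CPM). Ratios are mutant over wild type on the log2 scale with nothing added, unless 5 CPM is named. A gene entered the counts of a comparison when it reached 20 CPM in at least 1 library, a filter that a gene can pass through the library where it is high, so the same counts over all genes stand beside them.

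The libraries held 1346 wild type and 1737 mutant barcodes, with 6638880 and 6364506 UMIs and medians of 3323.5 and 2596 UMIs per barcode. After filtering, 1338 and 1726 cells were kept, and 1 barcode sequence occurred in both libraries. The lowest totals were 1781 UMIs in wild type and 1416 in mutant. Over all kept cells Myc, the gene served by the mutated enhancer, was at 45.3 CPM in wild type against 23.3 in mutant. Its log2 ratio was -0.96 (-1.25 to -0.67), not weighted for the mix of thymocyte stages, which differed between the libraries. The mutated sites lie outside the counted transcripts, so these counts do not show which library carries them. Cells were put into 5 stages by UMIs of marker genes that are no members of the list, namely early CD4-CD8- cells (44 wild type and 183 mutant), cycling cells (535 and 275), CD4+CD8+ cells (350 and 506), post-selection cells (116 and 163) and single-positive cells (152 and 296). Markers of T cells such as Cd3e and Lck summed to between 4322 and 9670 CPM in these stages.

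Over all kept cells, each of the 31 genes had a higher level in the mutant library, against 63.1% of the 15409 genes with a UMI. Their UMIs summed to 1156 CPM in wild type (1130 to 1182) and 2451 CPM in mutant (2413 to 2490), a 2.12-fold difference and a log2 ratio of 1.08 (1.04 to 1.12). Of the 22 genes that reached 20 CPM, 19 were at least 1.5-fold higher with 5 CPM added, against 7.11% of 5639 genes. Their median log2 ratio with 5 CPM added was 0.87, against 0.08 over all those genes. All 22 were higher, against 62.3% of the same genes, and none was at least 1.5-fold lower, against 2.86%. The 3 below 1.5-fold were Bst2, Xaf1 and Samhd1, and none of the 22 had a ratio interval that included 0.

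Proteins of membranes and small interferon-induced proteins held most of the UMIs. Ifi27l2a, a member of the small ISG12 protein family, was at 355.4 CPM in wild type against 817.4 in mutant, giving a log2 ratio of 1.20 (1.13 to 1.27). Shisa5, a membrane protein linked to cell death, was at 228.0 and 526.0 CPM, with a ratio of 1.21 (1.12 to 1.29). Together these genes carried about as many UMIs as all the other members, which without them summed to 572.5 and 1108 CPM, a ratio of 0.95 (0.89 to 1.01). Rtp4, a receptor transporter protein, was at 26.1 and 58.0 CPM, with a ratio of 1.15 (0.89 to 1.42). Bst2, the tetherin that holds budding viruses at the cell surface, had the smallest ratio of the 22, 0.40 (0.25 to 0.55), from 94.7 and 124.9 CPM.

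The ISG15 system had the highest summed log2 ratio of the groups, 1.49. Isg15, a ubiquitin-like modifier, was at 37.1 CPM in wild type against 96.0 in mutant, giving a log2 ratio of 1.37 (1.16 to 1.59). Usp18, the protease that removes ISG15 and also restrains the type I receptor, was at 6.67 and 26.8 CPM, with a ratio of 2.01 (1.52 to 2.52). Its 44 wild type UMIs were in 38 cells and its 169 mutant UMIs in 145 cells, so they were spread over cells. Summed over this pair the levels were 43.8 and 122.9 CPM.

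All 8 GTPases of the list were higher, with sums of 116.6 CPM in wild type against 250 in mutant, giving a log2 ratio of 1.10 (0.97 to 1.23). Among guanylate-binding proteins, Gbp7 was at 15 and 38.4 CPM and Gbp2 at 9.54 and 25.4 CPM. Among immunity-related GTPases, which act on vacuoles of intracellular pathogens, Ifi47 was at 41.5 and 77.8 CPM, Igtp at 26.4 and 46.7 CPM and Irgm1 at 15 and 28.3 CPM. The log2 ratios of these 5 ran from 0.82 for Igtp to 1.41 for Gbp2.

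The signal factors that pass on the interferon signal or respond to it were higher by similar amounts over all cells. Irf7, which drives interferon genes, was at 23.8 CPM in wild type against 47.1 in mutant, giving a log2 ratio of 0.99. Irf1, a factor induced by interferon gamma, was at 20.2 and 40.2 CPM, with a ratio of 1.00. Irf9, the DNA-binding part of the type I complex, was at 22.9 and 46.5 CPM, with a ratio of 1.02. The intervals of all 3 lay between 0.69 and 1.32, so their ratios over all cells could not be told apart. The similarity did not hold when the mutant levels were weighted by the wild type mix of stages. The ratios were then 0.81 for Irf1, 0.43 for Irf9 and 0.29 for Irf7.

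Genes acting on RNA, DNA or nucleotides had the lowest summed ratio of the groups with several members, 0.85 (0.74 to 0.97). Ifit1, which binds foreign RNA caps, was at 16.2 and 35.1 CPM. Isg20, an RNA exonuclease, was at 13.9 and 33.7 CPM, and Parp14, an ADP-ribosyltransferase, at 13.6 and 28.1 CPM. Zbp1, a sensor of Z-form nucleic acid, was at 42.3 and 71.1 CPM, and Samhd1, which breaks down deoxynucleotides, at 34.2 and 53.3 CPM. The ratios fell from 1.27 for Isg20 to 0.64 for Samhd1, whose intervals (0.91 to 1.64 and 0.39 to 0.89) did not overlap.

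Of the remaining named genes, Trim30a, a TRIM family regulator of inflammation in mice, was at 24.1 CPM in wild type against 60.7 in mutant, giving a log2 ratio of 1.33. Ifi35 was at 24.4 and 46.0 CPM. Xaf1, an antagonist of the XIAP inhibitor of apoptosis, was at 18.9 and 29.9 CPM, with a ratio of 0.66. The 9 members that stayed under 20 CPM in both libraries were Ifit2, Ifit3, Stat2, Rsad2, Oas1a, Oasl2, Mx1, Gbp3 and Iigp1, all with UMIs in both. The widest difference among them was that of Iigp1, an immunity-related GTPase, with 30 wild type and 120 mutant UMIs, and the smallest counts were those of Mx1, with 5 and 6 UMIs.

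**Figure D1:**
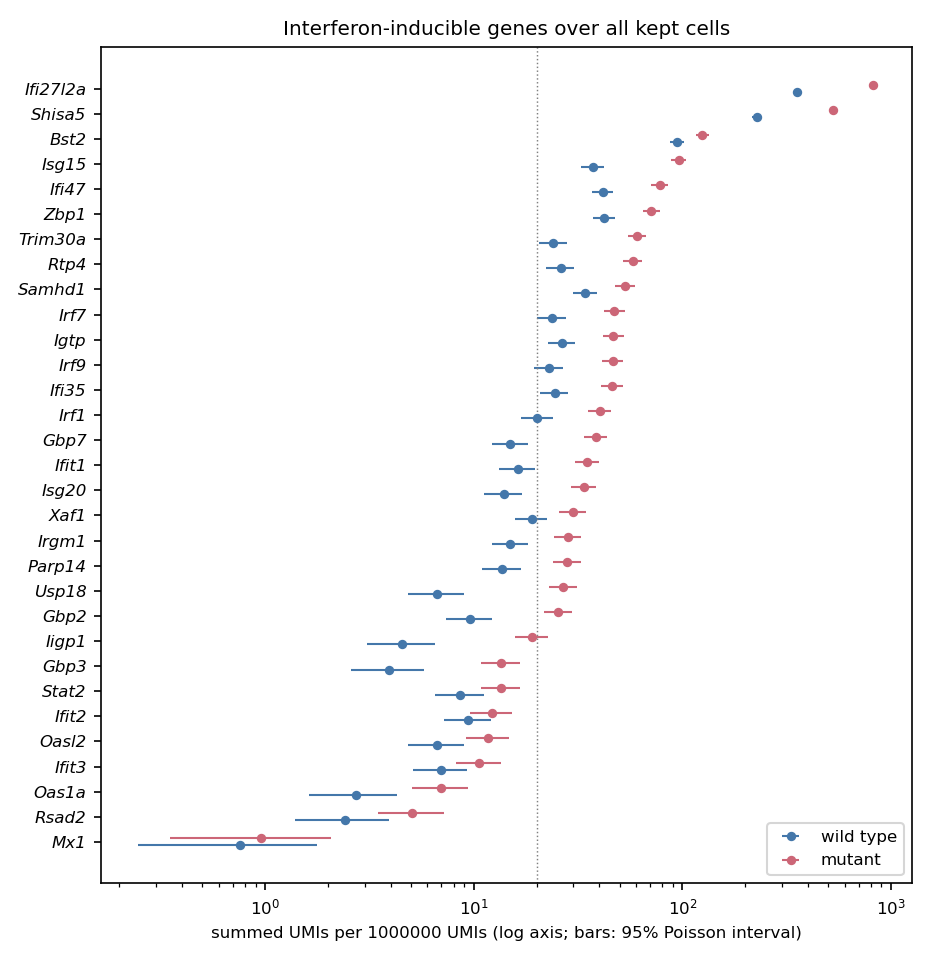
Level of each of the 31 interferon-inducible genes over all kept cells, in UMIs per 1000000 UMIs on a log axis, with 1 point per library and its 95% Poisson interval. The dotted line is 20 CPM. The mutant point lies to the right of the wild type point for every gene, from Ifi27l2a at 355.4 and 817.4 CPM down to Mx1 at 0.757 and 0.953 CPM, where the intervals overlap almost fully.

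Some of these counts may be shared between genes. In the GENCODE annotation of mm10, 6 members overlap another gene on their own strand and 8 one on the other strand, and the sources used here do not say how reads in shared bases were counted. Among the first are Igtp with Irgm2, Ifi47 with Olfr56 and Irf9 with Rnf31, and among the second are Usp18 with Gm44148 and Irf7 with Phrf1. Members of families with similar copies (Ifit, Gbp, Oas, Ifi27l2 and Trim30 genes) can also lose or gain reads.

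Promoter stretches of a few members are shown because they hold the elements that the interferon pathway reads. The 250 bases before the start site were searched on both strands for GAAANNGAAA, the core of an ISRE, and for TTCNNNGAA, the core of a GAS, with N for any base. A core on the other strand appears as its reverse complement. RefSeq promoters were found for 24 of the 31 members. An ISRE core occurred in 13 of them (54.2%), against 3.46% of 27025 genes, and a GAS core in 8 (33.3%), against 8.13%. Neither motif depends on the counts, and a match is not a binding site. The stretches below come from RefSeq on GRCm38.p6, read 5′ to 3′ on the strand of the gene, with the ISRE core in capitals, which overlaps itself in Isg15 and Bst2, and for Irf1 the GAS core. They lie at chr4:156200855-156200916 (minus strand) for Isg15, chr19:34640765-34640833 (plus) for Ifit1, chr3:142530263-142530312 (plus) for Gbp7, chr11:58199502-58199551 (plus) for Igtp, chr8:71537567-71537622 (minus) for Bst2 and chr11:53769904-53769952 (plus) for Irf1.
Isg15: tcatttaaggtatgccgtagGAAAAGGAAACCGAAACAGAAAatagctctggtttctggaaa
Ifit1: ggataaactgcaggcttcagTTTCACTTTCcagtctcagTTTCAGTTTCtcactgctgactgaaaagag
Gbp7: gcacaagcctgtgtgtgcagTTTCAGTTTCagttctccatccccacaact
Igtp: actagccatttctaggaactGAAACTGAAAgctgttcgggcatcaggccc
Bst2: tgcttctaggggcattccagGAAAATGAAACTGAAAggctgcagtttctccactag
Irf1: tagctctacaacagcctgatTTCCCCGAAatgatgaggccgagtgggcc

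Isg15 holds 3 overlapping ISRE cores, the nearest beginning 66 bases before the start site, Ifit1 holds 2 on the opposite strand, and Bst2 holds 2. The stretches of Bst2 and Igtp also hold a GAS core, not marked as such, and the 250 bases of Gbp7 hold one too. Members with and without the core had overlapping ranges of ratios over all cells. The 8 counted members with an ISRE core had a median log2 ratio with 5 CPM added of 0.99, running from 0.38 for Bst2 to 1.26 for Isg15. The 9 with a promoter and no ISRE core had a median of 0.84, running from 0.54 to 1.19, and the 5 with no promoter in the table had a median of 1.02. So few genes, split by an exact match in 250 bases, cannot show whether the element matters for these ratios.

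The level of the list depended more on the stage than on the library. In wild type the summed level was 5312 CPM (5123 to 5507) in single-positive cells, 1608 (1474 to 1750) in post-selection cells, 1520 (1360 to 1695) in early cells, 997.0 (932.3 to 1065) in CD4+CD8+ cells and 416.4 (396.8 to 436.7) in cycling cells. In mutant the corresponding levels were 6042 (5900 to 6185), 2521 (2374 to 2674), 1919 (1813 to 2029), 1481 (1409 to 1555) and 788.6 (750.4 to 828.2) CPM. The order was thus the same in both libraries, with post-selection and early cells overlapping in wild type only. Without Ifi27l2a and Shisa5, early cells (1118 CPM in wild type and 1288 in mutant) ranked above post-selection cells (727.0 and 1074 CPM) in both. Single-positive cells were 12.8-fold above cycling cells in wild type and 7.66-fold above them in mutant. Without Ifi27l2a and Shisa5 these values were 7.15-fold and 3.85-fold. Of the 22 named genes, 19 were at their highest in single-positive cells in both libraries, and the exceptions were Bst2, Gbp7 and, in wild type, Igtp. Bst2 was highest in early cells in wild type, at 304.1 CPM, and in CD4+CD8+ cells in mutant, at 188.7 CPM.

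**Figure D2:**
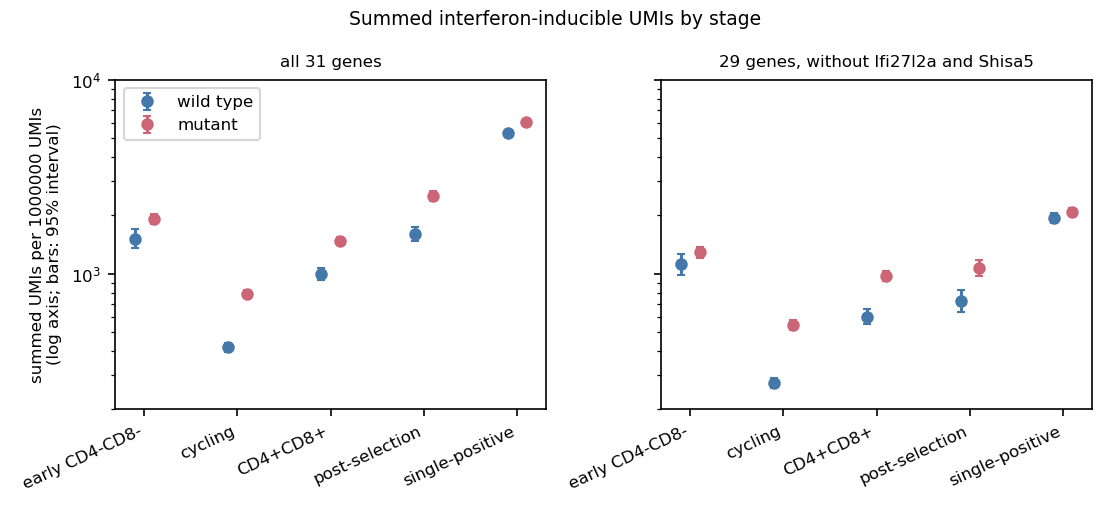
Summed level of the list by stage and library in UMIs per 1000000 UMIs on a log axis, with 95% Poisson intervals, for all 31 genes at left and for the 29 genes other than Ifi27l2a and Shisa5 at right. The libraries lie furthest apart in cycling cells (416.4 and 788.6 CPM at left) and close together in single-positive cells (5312 and 6042 CPM).

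The libraries held different mixes of these stages. Single-positive cells gave 8.49% of the UMIs of wild type and 18.3% of those of mutant, and cycling cells gave 61.7% and 32.2%. Single-positive cells carried 39.0% of the list's UMIs in wild type and 45.1% in mutant. When the mutant levels of each stage were weighted by the wild type mix, the summed level was 1640 CPM in place of 2451, 1.42-fold above wild type, and 46.6% of the log2 ratio was left. At that mix 6 of 19 counted members were at least 1.5-fold higher, against 3.5% of 5573 genes, with a median log2 ratio of 0.49 against 0.15. The genes differed in how much was left. Usp18 kept its whole ratio, at 2.01 as measured and 2.09 at the wild type mix. Isg15 went from 1.37 to 1.04 and Ifi47 from 0.91 to 0.75, whereas Ifit1 went from 1.11 to 0.27, Irf7 from 0.99 to 0.29 and Ifi27l2a from 1.20 to 0.43. Samhd1 turned from 0.64 to -0.16.

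In cycling cells, gated by genes of DNA synthesis and cell division, 29 of the 30 members with a UMI were higher in mutant, against 61.0% of genes. The summed log2 ratio was 0.92 (0.82 to 1.02). Of 12 members at 20 CPM or more, 11 were higher, against 73.0% of 5414 genes, and 9 at least 1.5-fold, against 7.55%, with a median of 0.86 against 0.17. None was at least 1.5-fold lower, against 2.12%. Usp18 had 8 UMIs in 8 wild type cells and 61 UMIs in 53 mutant cells, at 1.96 and 30.1 CPM, giving a log2 ratio of 3.94 (2.87 to 5.21). Isg15 was at 11.3 and 52.7 CPM, with a ratio of 2.22 (1.71 to 2.76), and Trim30a at 6.38 and 22.2 CPM, with a ratio of 1.80 (1.07 to 2.55). At the other end, Bst2 was at 70.9 and 69.5 CPM, a ratio of -0.03 (-0.33 to 0.27). Ifi27l2a was at 92.5 and 132.6 CPM, where a single wild type cell held 22.6% of the UMIs, and Igtp at 13.5 and 22.7 CPM. Mx1 had no UMI here.

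Cycling cells of the libraries were not of the same kind throughout. The median cell had 17 UMIs of CD4+CD8+ markers in wild type and 8 in mutant. Among cycling cells with at least 5 such UMIs (496 and 188 cells), the summed levels were 403.0 and 770.4 CPM, giving a log2 ratio of 0.93 (0.82 to 1.04). Among the other 39 and 87 cells they were 604.9 and 847.4 CPM, a ratio of 0.49 (0.22 to 0.76). After thinning of each cell to 1500 UMIs, all cycling cells had a summed ratio of 0.56. Of 9 members counted then, 5 were at least 1.5-fold higher, against 15.5% of all genes.

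In CD4+CD8+ cells, the largest resting population of the thymus, 21 of 30 members with a UMI were higher in mutant, against 57.2% of genes, and the summed log2 ratio was 0.57 (0.45 to 0.69). Of 20 counted members 17 were higher, against 63.3% of 5972 genes, and 10 at least 1.5-fold, against 11.4%. None was at least 1.5-fold lower, against 4.86%, and the median was 0.68 against 0.13. Usp18 was at 4.53 CPM in wild type against 27.1 in mutant, a ratio of 2.58 (1.07 to 4.55) from 4 and 29 UMIs. Trim30a was at 23.8 and 57.9 CPM, with a ratio of 1.29 (0.55 to 2.07), and Irf1 at 17.0 and 42.0 CPM, with a ratio of 1.31 (0.44 to 2.26). Bst2, near equal in cycling cells, was at 96.2 and 188.7 CPM here, a ratio of 0.97 (0.60 to 1.36). Parp14 was at 21.5 and 14 CPM and Xaf1 at 23.8 and 17.7 CPM, with intervals of the ratio that included 0, and Irf9 was at 27.2 and 27.1 CPM.

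In post-selection cells, which have received a signal through the T cell receptor, 25 of 30 members with a UMI were higher in mutant, against 53.8% of genes, and the summed log2 ratio was 0.65 (0.50 to 0.80). Of 20 counted members 19 were higher, against 55.9% of 6005 genes, 12 at least 1.5-fold, against 16.1%, and 1 was at least 1.5-fold lower, against 10.2%. The median was 0.71 against 0.07. Rtp4 was at 21.1 CPM in wild type against 64.0 in mutant, a ratio of 1.60 (0.37 to 3.04). Bst2 was at 42.2 and 98.3 CPM, with a ratio of 1.22 (0.32 to 2.20), Irf7 at 18.1 and 45.7 CPM and Xaf1 at 15.1 and 41.1 CPM. The gene that was lower was Samhd1, at 153.8 and 84.6 CPM, a ratio of -0.86 (-1.51 to -0.22) from 51 and 37 UMIs. Ifi35 and Zbp1 had ratios of 0.18 and 0.21, with intervals that included 0.

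In early CD4-CD8- cells, the least mature stage, 20 of 31 members were higher in mutant, against 61.7% of genes, and the summed log2 ratio was 0.34 (0.16 to 0.52). Of 25 counted members 16 were higher, against 64.5% of 6074 genes, 10 at least 1.5-fold, against 27.8%, and 3 were at least 1.5-fold lower, against 9.66%. The median was 0.56 against 0.25, and the share higher by any amount was at the background. In cells thinned to 1500 UMIs this median was 0.20 against 0.24. There 8 of 24 counted members were at least 1.5-fold higher, against 35.9% of all genes, so this share was not above the background. Without the cell richest in member UMIs of each library the median was 0.28 against 0.25, and the summed log2 ratio was 0.19. With 44 wild type cells, most wild type counts were under 20 UMIs. Gbp2 had no wild type UMI and 21 mutant UMIs, at least 2.32-fold higher when the wild type level is set at a floor of 3 UMIs. Stat2 had 1 and 17 UMIs, a ratio of 2.50 (-0.18 to 7.88), and Isg20 had 4 and 39, a ratio of 1.69 (0.22 to 3.64). Shisa5 was at 154.4 and 386.5 CPM, with a ratio of 1.32 (0.80 to 1.89).

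The members that were lower in early cells were led by Bst2, at 304.1 CPM in wild type against 181.6 in mutant, giving a log2 ratio of -0.74 (-1.19 to -0.28). Samhd1 was at 70.2 and 34.2 CPM, with a ratio of -1.04 (-2.05 to 0.01), and Xaf1 at 46.8 and 29.5 CPM, with a ratio of -0.67 (-1.84 to 0.60). Oasl2, Irf9, Rtp4, Ifi27l2a, Ifit1 and Irf7 also had ratios below 0, from -0.48 for Oasl2 to -0.01 for Ifit1 and Irf7, all with intervals that included 0. In Ifi27l2a a single wild type cell held 83.0% of the UMIs. Early cells also differed in their own markers, whose sum was 1993 CPM in wild type against 3829 in mutant, and the part of this in the members' values was not tested.

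Single-positive cells, the most mature stage, had the highest levels and the smallest difference. Here 21 of 31 members were higher in mutant, against 55.5% of genes, and the summed log2 ratio was 0.19 (0.12 to 0.25). Of 25 counted members 17 were higher, against 58.1% of 5081 genes, and 1 at least 1.5-fold, against 8.19%. None was at least 1.5-fold lower, against 5.1%, and the median was 0.11 against 0.07. The gene was Gbp2, at 23.2 CPM in wild type against 38.2 in mutant, with a ratio of 0.72 (-0.20 to 1.74). Iigp1 was at 26.8 and 40.8 CPM and Irf9 at 73.2 and 106.8 CPM, a ratio of 0.55 (0.02 to 1.09) for Irf9. Ifi27l2a, at 2206 and 2667 CPM, had a ratio of 0.27 (0.18 to 0.37), and Shisa5, at 1157 and 1286 CPM, one of 0.15 (0.02 to 0.29). Usp18, far apart in cycling cells, was at 35.7 and 36.5 CPM, a ratio of 0.03 (-0.77 to 0.88).

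The members with ratios below 0 in single-positive cells were Ifit3, Oasl2, Samhd1, Zbp1, Xaf1, Irgm1, Bst2 and Ifit1. Ifit3 was the lowest, at 53.6 CPM in wild type against 38.2 in mutant, a ratio of -0.49 (-1.19 to 0.23), and the intervals of the others also included 0. Without Ifi27l2a and Shisa5 the levels were 1949 and 2089 CPM, a ratio of 0.10 with an interval from 0.00 to 0.20. In cells with at least 2 UMIs of Cd8a and Cd8b1 and none of Cd4, the list summed to 5008 and 5230 CPM, and in cells with Cd4 and under 2 UMIs of Cd8a and Cd8b1, to 6521 and 6776 CPM. Both ratios were 0.06 with intervals that included 0. In cells with at least 3 UMIs of Klf2 and S1pr1, genes of cells ready to leave the thymus, the levels were 5462 and 6403 CPM, a ratio of 0.23 (0.14 to 0.32), and in the other single-positive cells they were 5189 and 5468 CPM, a ratio of 0.08 (-0.02 to 0.17).

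**Figure D3:**
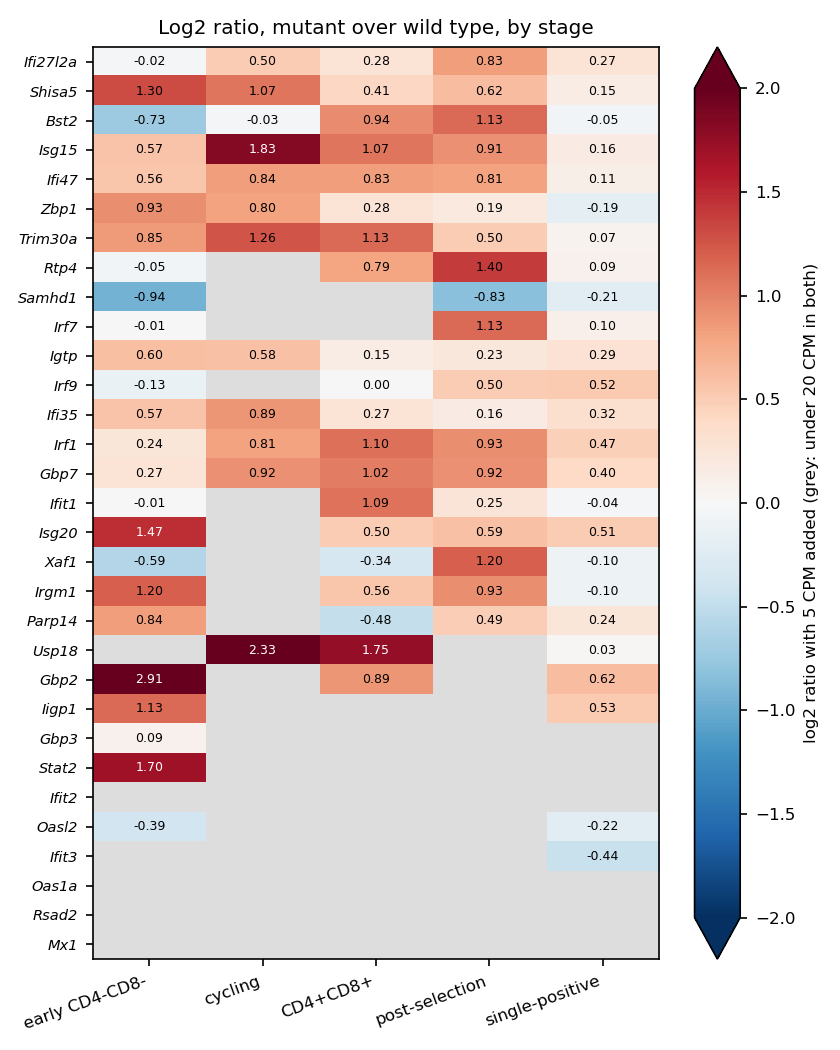
Log2 ratio of mutant over wild type with 5 CPM added, for each gene (rows, in order of their mutant level over all cells) and stage (columns), with grey where a gene was under 20 CPM in both libraries. Values run from -0.94 (Samhd1, early cells) to 2.91 (Gbp2, early cells), and the single-positive column holds the palest colours.

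The higher level was therefore not shared by all members in all stages. Of 11 members that reached 20 CPM in each of the 5 stages, 8 were higher in mutant in all 5, against 18.1% of 4111 such genes. These were Isg15, Irf1, Gbp7, Ifi47, Ifi35, Igtp, Trim30a and Shisa5, and none of them was at least 1.5-fold higher in every stage. Of 27 members that reached 20 CPM in some stage, 22 were at least 1.5-fold higher in 1 or more, against 41.3% of 7594 genes. Bst2, Xaf1 and Samhd1 were at least 1.5-fold lower in 1 or more, against 20.7%. Samhd1 was below wild type in each of the 3 stages where it was counted, although it was higher over all cells. Its level in single-positive cells was 164.2 CPM in wild type against 141.5 in mutant. With 1 library per genotype, differences between stages in these ratios were not tested.

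**Figure D4:**
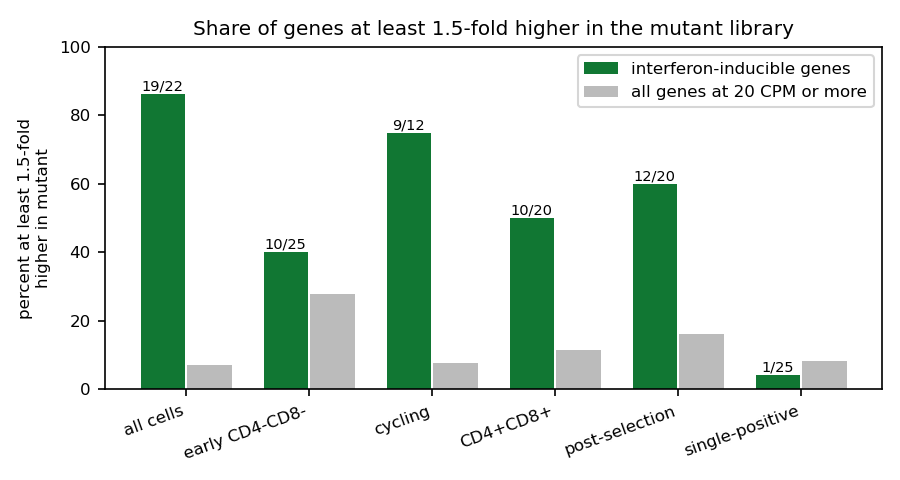
Percent of genes at least 1.5-fold higher in mutant with 5 CPM added, for the interferon-inducible genes (green, with counts above the bars) and for all genes at 20 CPM or more (grey), over all cells and by stage. The green bar exceeds the grey one over all cells (86.4% and 7.11%) and in 4 stages, and lies below it in single-positive cells (4.0% and 8.19%). In early cells the excess was absent after thinning to 1500 UMIs (8 of 24 members, against 35.9% of all genes, not drawn).

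On the scale of total UMIs the median gene was itself higher in mutant, by 0.25 on the log2 scale in early cells, 0.17 in cycling cells and 0.13 in CD4+CD8+ cells. With median-of-ratios size factors the summed log2 ratio of the list was 0.07 in early cells, 0.74 in cycling cells, 0.43 in CD4+CD8+ cells and 0.11 in single-positive cells. As a point value it stayed above 0 in every stage under each scaling that was tried, and no intervals are given for the rescaled values. In early cells 0.07 lay below the counting interval on total UMIs (0.16 to 0.52). Without Ifi27l2a and Shisa5 the early ratio on total UMIs was 0.20 (0.00 to 0.42).

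The same comparison was made within clusters of cells, found without the 31 genes. Of 17 clusters, 11 had at least 20 cells of each library, and the list summed to a higher level in mutant in all 11, with every interval above 0. The clusters share the same libraries and the scale of total UMIs, and no median over all genes was set beside their ratios. In gated single-positive cells the median gene was higher in mutant by 0.07 on the log2 scale. The log2 ratios ran from 0.10 (0.02 to 0.18) in cluster 9, led by Ifi27l2a, Cd52 and Ms4a4b, to 1.17 (0.98 to 1.36) in cluster 6, led by Hmgb2 and Dut. In cluster 6 Usp18 had 3 UMIs among 198 wild type cells and 26 among 97 mutant cells. Cluster 16, made of cycling cells, held 123 mutant and no wild type cells, with the list at 557.1 CPM. The difference in cycling cells was also present in clusters 2, 3 and 6, which had at least 20 cells of each library. Clusters 0 and 1, both of CD4+CD8+ cells, held mainly wild type (238 and 26) and mainly mutant cells (15 and 421). Shared clusters with under 20 cells of a library went both ways. The list was lower in mutant in single-positive cluster 15 (5434 and 2652 CPM, from 12 and 16 cells). It was also lower in cluster 14, of B and antigen-presenting cells (4609 and 2519 CPM), and in cycling cluster 4 (334.1 and 283.0 CPM). In CD4+CD8+ clusters 1 (664.5 and 1060 CPM) and 11 (578.3 and 2081 CPM) it was higher.

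The higher levels were spread over many cells. With each cell thinned to 1500 UMIs, which left out 97 mutant cells, a UMI of the 29 members other than Ifi27l2a and Shisa5 was found in 49.0% of wild type (46.2 to 51.7) and 68.8% of mutant cells (66.4 to 71.0, exact Clopper-Pearson intervals). Shares in cycling cells were 33.6% (29.6 to 37.8) and 47.6% (41.6 to 53.7), and in CD4+CD8+ cells 45.1% (39.8 to 50.5) and 66.9% (62.3 to 71.3), after 62 mutant cells were left out. In post-selection cells they were 48.3% and 62.3%, with overlapping intervals. Single-positive cells had 87.5% and 90%, and early cells 84.1% and 72.9%, the reverse order, both with overlapping intervals. Without thinning the shares over all cells were 73.6% and 82.9%. These genes have no thymocyte stage that should lack them, so no background share from free RNA could be set beside these values, and cycling wild type cells had the lowest.

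Cells with UMIs of several different members made up the largest share of single-positive cells. After thinning, UMIs of at least 3 different members occurred in 78.9% of wild type and 85.5% of mutant single-positive cells. In cycling cells this share was 3.93% and 6.55%, and in CD4+CD8+ cells 10.6% (7.55 to 14.3) and 19.4% (15.8 to 23.4). Early cells had 20.5% and 29.3%, post-selection cells 19.8% and 29.2%, and cells that met no gate 39.0% and 52.7%. Single-positive cells were 120 of the 263 such wild type cells and 248 of the 594 such mutant cells. Usp18 was found in 0.374% of wild type and 2.91% of mutant cycling cells after thinning, and in 1.5% and 19.3% without it, where the cycling cells had medians of 6211 and 6591 UMIs. Ifi27l2a was found in 7.10% and 8.73% of thinned cycling cells and in 87.5% and 88.6% of thinned single-positive cells.

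**Figure D5:**
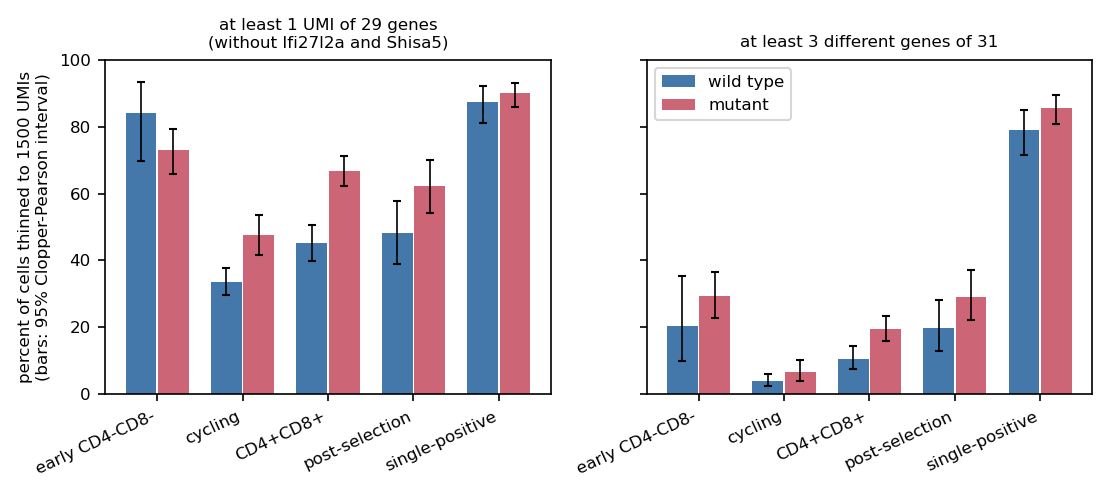
Percent of cells, each thinned to 1500 UMIs, with at least 1 UMI of the 29 genes other than Ifi27l2a and Shisa5 (left) and with UMIs of at least 3 different genes of the 31 (right), by stage and library, with 95% Clopper-Pearson intervals. At left the bars of CD4+CD8+ cells stand furthest apart (45.1% and 66.9%), and at right only single-positive cells pass 30% (78.9% and 85.5%).

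The pathway upstream of these genes was measured through a separate list of 97 interferon pathway genes, of which 95 were among the gene symbols. Of 9 interferon genes, 8 had no UMI in either library, and Ifng had 1 UMI in mutant. The receptor genes of both interferon types were detected. Ifngr1, a chain of the interferon gamma receptor, was at 292.2 CPM in wild type against 411.7 in mutant, giving a log2 ratio of 0.49 (0.41 to 0.58), and Ifngr2 at 25 and 32.1 CPM. Ifnar1, of the type I receptor, was at 37.0 and 48.4 CPM, Ifnar2 at 55.9 and 51.4 CPM, and Il10rb, shared with the lambda receptor, at 12.7 and 16.2 CPM. Receptor ratios over all cells thus lay between -0.12 for Ifnar2 and 0.49. With 5 CPM added, the median of the counted receptor genes was 0.33 over all cells and 1.18 in early cells. It was 0.01 in cycling, -0.06 in CD4+CD8+, -0.16 in post-selection and 0.08 in single-positive cells.

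Among the kinases that receptors use, Jak1 was at 99.8 CPM in wild type against 143.7 in mutant, Jak2 at 12.1 and 17.8 CPM and Tyk2 at 3.48 and 7.46 CPM. Stat3, which many cytokines activate, was at 33.3 and 61.4 CPM. All 4 were higher in mutant, with log2 ratios from 0.53 for Jak1 to 1.10 for Tyk2.

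Of the 42 genes of this pathway list at 20 CPM or more over all cells, 38 were higher in mutant, 15 at least 1.5-fold, and 1 was at least 1.5-fold lower, with a median log2 ratio of 0.48. Over all genes 62.3% were higher, 7.11% at least 1.5-fold higher and 2.86% at least 1.5-fold lower, and the median was 0.08. The 4 highest besides receptors, kinases and STAT genes were Socs3, a feedback inhibitor of cytokine receptors, at 5.45 and 25.4 CPM, Ifi27 at 93.8 and 216.4 CPM, Slfn1 at 16.2 and 40.3 CPM and Gbp9 at 11.5 and 28.3 CPM. The 4 lowest were Epsti1 at 109.7 and 49.2 CPM, the feedback inhibitor Socs1 at 118.5 and 93.8 CPM, Ly6e at 1305 and 1251 CPM and Pml at 26.4 and 27.9 CPM. The values over all cells were not weighted for the mix of stages. Medians by stage were 0.52 in early, 0.35 in cycling, 0.29 in CD4+CD8+ and 0.12 in post-selection cells. Over all genes they were 0.25, 0.17, 0.13 and 0.07 in the same order. In single-positive cells 34 of 57 genes were higher, against 58.1% of all genes, and 3 at least 1.5-fold, against 8.19%. There 6 were at least 1.5-fold lower, against 5.1%, and the median was 0.06 against 0.07.

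Markers of other cell types and stages also differed between the libraries. Over all cells, 11 markers of macrophages and dendritic cells summed to 429.8 CPM in wild type against 860.2 in mutant, and cells gated as B or antigen-presenting cells gave 1.41% and 3.81% of UMIs and 3.68% of the list's UMIs in each. Without innate-like, B and antigen-presenting cells the summed log2 ratio of the list was 1.11, not weighted for the mix of stages. Of 23 members counted then, 21 were at least 1.5-fold higher, against 7.02% of all genes. Within the 5 stages the macrophage and dendritic cell markers summed to between 103.5 and 220.7 CPM in wild type and between 125.9 and 228.5 CPM in mutant, all 11 with UMIs in wild type and all but Csf1r in mutant. Of 5 markers of plasmacytoid dendritic cells, a known source of type I interferon, Siglech and Klk1 had no UMI in any stage in either library, and the sum was highest in early cells, at 65.5 and 128.8 CPM. The sums of 5 B cell markers lay between 3.02 and 36.2 CPM and between 14.3 and 63.5 CPM. Of 5 markers of thymic epithelium, Krt5 and Psmb11 were at 0 in both. The 8 markers of innate-like T and NK cells, all with UMIs in both libraries, were higher in mutant in each stage. They summed to 224.6 and 437.7 CPM in early cells, 193.1 and 342.1 in cycling cells, 196.9 and 285.8 in CD4+CD8+ cells, 72.4 and 134.8 in post-selection cells and 353.4 and 401.1 in single-positive cells. Single-positive markers, those of the stage where the list was highest, summed to 318.1 and 715.6 CPM in early cells and to 113.4 and 215.4 CPM in cycling cells. The part of these sums in the members' values was not tested.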

How the data were processed

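Per the labels' protocols, each sample was a suspension of 5000 thymocytes run on a 10x Chromium instrument (3′ v2 kit, Illumina HiSeq). The submitters' processing notes name Cell Ranger and mm10. Their versions and settings are not given in the sources used here. The authors deposited raw counts, as whole numbers of UMIs for each barcode and gene symbol.

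Barcodes with at least 400 genes and at most 10% mitochondrial UMIs were kept. This dropped 5 barcodes of wild type and 6 of mutant, and Scrublet (expected rate 4%) removed 3 and 5 more. So few calls leave doublets among the kept 3064 of 3083 barcodes. Stages were set by UMIs of marker lists, in the order antigen-presenting and B (10 or 5 UMIs), innate-like T and NK (20), cycling (10), early (4), single-positive (5), post-selection (5) and CD4+CD8+ (5). A cell went to the first list it reached, and 118 wild type and 224 mutant cells reached none. Cells within 2 UMIs of the threshold made up 78 of 152 wild type and 121 of 296 mutant single-positive cells, and fewer in cycling cells (33 of 535 and 22 of 275). Clusters (scanpy 1.11.5, 2000 variable genes without the members, 30 components, 15 neighbours, Leiden resolution 1, no batch integration) were an alternative.

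UMIs were summed by library and stage, with exact Poisson intervals, exact conditional intervals of ratios and Clopper-Pearson intervals of shares (scipy 1.17.1). UMIs of droplets are molecules counted in 1 library each, and intervals cover counting error only. The ratio code was tested on simulated data. The members, lists and stages were chosen with earlier results of these data known. The text names members at 20 CPM or more over all cells, in each stage the 3 highest, the 3 lowest and those below wild type, and of the pathway list the ligands, receptors, kinases, STAT genes and the 4 highest and 4 lowest others. Shisa5, Ifi27l2a, Bst2 and Usp18 are also named in further stages, chosen after their values were seen. Promoters came from RefSeq (GRCm38.p6) and positions from GENCODE (mm10). Some items of these lists are not reported here.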

Additional observations from a re-analysis of the deposited data

Results flagged for a closer look

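Bst2 differed in direction between stages. Its log2 ratio of mutant over wild type was -0.74 in early CD4-CD8- cells (304.1 and 181.6 CPM), 0.97 in CD4+CD8+ cells (96.2 and 188.7 CPM) and 1.22 in post-selection cells (42.2 and 98.3 CPM), each with a counting interval that excluded 0. With 1 library per genotype this difference between stages was not tested. Early cells numbered 44 in wild type, and after thinning to 1500 UMIs a Bst2 UMI was found in 43.2% of them (28.3 to 59.0) and in 18.8% of mutant early cells (13.4 to 25.2), so the lower level was not that of a few cells.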

How the results depend on the processing

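There were 258 alternative values of summed ratios, medians and counts of members at least 1.5-fold higher. Of these, 209 stayed within the counting interval (summed ratios) or within 1.5 times the reported value (medians and counts). No summed ratio or median changed sign, and counts have no sign to change. In thinned cells the median fell below that of all genes in early (0.20 against 0.24) and single-positive cells (0.04 against 0.06). Of 1473 values of single members 4 changed direction. Weighting mutant by the wild type mix of stages, an alternative chosen after seeing the data, moved the values over all cells most, to a summed log2 ratio of 0.50, a median of 0.49 and a count of 6, and turned Samhd1 to -0.16. Other alternatives chosen after seeing the data were lower marker thresholds (single-positive count 2), leaving out the richest cell in each library and stage (single-positive count 2) and leaving out Ifi27l2a and Shisa5 (summed ratios 0.95 over all cells, 0.70 in CD4+CD8+ and 0.10 in single-positive cells).

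Summed ratios moved with the scaling. Totals without mitochondrial and ribosomal protein genes gave 1.04 over all cells, 0.12 in early and 0.79 in cycling cells, with an early median of 0.21 and a single-positive count of 2. Median-of-ratios size factors gave 0.99 over all cells, 0.07 in early, 0.74 in cycling, 0.43 in CD4+CD8+ and 0.11 in single-positive cells, with medians of 0.17 in early and 0.04 in single-positive cells and a single-positive count of 0. The mean over cells gave 0.74 over all cells, an early median of 0.35 and a single-positive count of 2. Cells thinned to 1500 UMIs gave 0.75 over all cells and 0.56 in cycling cells, with medians of 0.20 in early and 0.04 in single-positive cells. Their counts were 5 of 9 in cycling cells, against 15.5% of all genes, and 2 in single-positive cells. Thinning also turned Xaf1 (0.54) and Zbp1 (-0.46) in early and Igtp (-0.26) in cycling cells, and the cause was not tested. A shared lower limit of UMIs gave 1.13 over all cells and 0.80 in CD4+CD8+ cells, and leaving out the 4% highest doublet scores gave 1.16 over all cells and 1.18 in cycling cells.

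With the filter at 10 CPM the counts were 15 of 22 in cycling cells, against 7.75% of all genes, and 2 in single-positive cells. At 50 CPM fewer genes are counted. The counts were 7 of 9 over all cells, 5 of 13 in early and 3 of 5 in cycling cells. They were 4 of 8 in CD4+CD8+, 6 of 10 in post-selection and 0 of 20 in single-positive cells. Shares over all genes were, in the same order, 6.82%, 24.3%, 7.01%, 8.98%, 12.9% and 4.54%. Adding 1 CPM or raising the marker thresholds gave a single-positive count of 2. Stages from clusters gave a summed ratio of 0.74 in CD4+CD8+ cells, a single-positive count of 2 and a post-selection median of 0.31. The post-selection count was 7 of 23, against 7.03% of all genes. Leaving out the richest cell of each library gave an early median of 0.28. The single-positive count, 1 as reported, lay between 0 and 2 throughout, of 20 to 30 counted members. The share over all genes there lay between 4.54% and 17.3%.

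Shares of cells with a UMI of 29 members follow the depth, and mutant was above wild type at each depth except in early cells. Without thinning they were, in wild type and mutant, 73.6% and 82.9% over all cells, 100% and 89.6% in early, 71.4% and 85.8% in cycling, 63.4% and 72.3% in CD4+CD8+, 62.1% and 74.8% in post-selection and 98.0% and 98.3% in single-positive cells. Thinned to 1000 UMIs they were 37.7% and 56.9%, 65.9% and 60.7%, 21.5% and 38.9%, 37.4% and 53.6%, 34.5% and 45.4%, and 74.3% and 79.4%, in the same order.

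No paired analysis was possible because each genotype has 1 library. Animal, batch and genotype cannot be told apart, and single members in early and post-selection cells rest on few wild type UMIs.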

Other observations

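Cells outside the 5 stages gave values in both directions. In 9 wild type and 23 mutant cells gated as innate-like T and NK, the 31 interferon-inducible genes summed to 538.8 and 2208 CPM. In 14 wild type and 56 mutant cells gated as B and antigen-presenting, the sums were 3021 CPM (2678 to 3396) and 2369 CPM (2178 to 2572), a log2 ratio of -0.35 (-0.56 to -0.14). That gate held B cell markers at 9698 CPM in wild type and 2077 CPM in mutant, while the median cell had 2 and 7 UMIs of them. Macrophage and dendritic cell markers were at 18330 and 18100 CPM. The mix of cells in this gate can thus differ between the libraries. Single wild type cells held 63.4% of the Bst2 UMIs and 34.8% of the Ifi27l2a UMIs there, so this ratio rests on few cells. In the 118 and 224 cells that met no gate, the sums were 2687 and 3668 CPM, a log2 ratio of 0.45 (0.33 to 0.57).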
